A study of Mus musculus with 16 samples.

Results

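Interferon-response genes were followed in AML12 cells, a mouse hepatocyte line, that carried either a control shRNA or an shRNA against eIF6, a factor that binds the large ribosomal subunit. The genes were chosen by name: every Ifit, Ifi, Oas, Oasl, Irf, Gbp, Isg and Stat gene with a number, plus Mx1, Mx2, Rsad2 and Usp18. This gave 60 genes with 85 probes among the 30214 gene names with 39429 probes on the array, and the rule itself uses no measured value. Of the 60 genes, 46 were tested, because they had a probe well above background on at least 2 of the 4 arrays of some group. The filter was passed in both scramble and shRNA arrays by 45 of them, 31 genes were above background on all 16 arrays, and 14 were not tested. The comparison asks whether the shRNA moved an interferon response, and whether any change lay in the polysomal or the subpolysomal RNA.

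Scramble and eIF6 shRNA cells were both infected with a lentiviral, doxycycline-inducible vector, both received doxycycline, and both were given insulin for 1 h before lysis. The sample descriptions give insulin as 100 nM, and another label gives a different unit, so the dose is uncertain. Each lysate was separated on a sucrose gradient into heavier, polysomal fractions and lighter, subpolysomal fractions, and the RNA of each was hybridised to a one-colour Agilent array. There were 4 arrays for each of the 4 groups (scramble polysomal, shRNA polysomal, scramble subpolysomal and shRNA subpolysomal), 16 in all, which the methods describe as biological quadruplicates. Effects of the shRNA other than those through eIF6 cannot be told apart from loss of eIF6 in this design, and cells without virus or without doxycycline were not analysed here. The labels name no added interferon.

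Interferons are secreted proteins that cells release when their nucleic-acid sensors meet viral RNA or DNA. Type I and type III interferons signal through JAK kinases to a complex that holds STAT2 and IRF9 and binds interferon-stimulated response elements, and interferon gamma signals to GAS elements. The induced genes include antiviral effectors (OAS proteins, IFITs, viperin, ISG15), guanylate-binding proteins that attack pathogen vacuoles, and the STAT and IRF factors themselves. Hepatocytes respond to type I interferons and to interferon gamma.

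A few promoters of the genes are given here, all chosen from those with a match to the response element. RefSeq windows of 300 bases (250 before and 50 from the start site, GRCm38.p6) were at hand for 41 of the 60 genes. The response element was searched as GAAA, any 2 bases, GAAA on both strands, and the GAS element as TTCNNNGAA, which reads the same on both strands. A response-element match was present in 17 of the 41 genes (41.5%), against 3.99% of all 27025 genes with such a window. A GAS match was present in 10 of the 41 (24.4%), against 9.55% of all genes with a window. In the 41 genes no match of one motif shared a base with a match of the other. Genes lower with the shRNA in either fraction held a response-element match in 4 of 6 cases, genes higher in 3 of 9, and genes not called in 6 of 17. The stretches below lie before the start site, read 5′ to 3′ on the gene's strand, and carry the matches in capitals. In the order printed, they come from chr4:156200830-156200941 (- strand), chr12:26456518-26456617 (- strand) and chr5:120907526-120907590 (- strand), of genes that were lower on shRNA polysomes, and from chr10:128270248-128270330 (+ strand), chr19:34583328-34583461 (+ strand) and chr5:120812568-120812673 (- strand), of genes that were higher.
Isg15: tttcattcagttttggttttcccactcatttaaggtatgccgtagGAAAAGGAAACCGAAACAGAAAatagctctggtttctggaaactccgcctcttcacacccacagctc
Rsad2: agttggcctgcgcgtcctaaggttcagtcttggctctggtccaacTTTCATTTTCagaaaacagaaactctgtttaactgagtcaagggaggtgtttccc
Oas1a: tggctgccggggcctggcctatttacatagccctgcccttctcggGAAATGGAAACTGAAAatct
Stat2: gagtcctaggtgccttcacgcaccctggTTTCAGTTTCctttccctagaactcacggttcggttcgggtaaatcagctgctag
Ifit3: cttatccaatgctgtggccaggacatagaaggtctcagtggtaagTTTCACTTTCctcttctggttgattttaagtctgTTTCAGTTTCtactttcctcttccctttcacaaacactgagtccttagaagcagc
Oas1c: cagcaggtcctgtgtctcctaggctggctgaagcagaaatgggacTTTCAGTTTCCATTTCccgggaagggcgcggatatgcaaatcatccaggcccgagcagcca
The same letters were therefore present in promoters of genes that changed in opposite directions. A match describes these letters only and is not a measured binding site.

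The shRNA target itself was lower on polysomes. Eif6, the mean of 3 probes, was at 12.96, 12.94, 12.96 and 12.94 on the scramble polysomal arrays and at 11.92, 11.999, 11.85 and 11.81 on the shRNA polysomal arrays, in log2 normalized intensity, the scale of all levels given here. It fell by 1.05 ± 0.08 (SE) there, with no overlap and an adjusted p of 1.45e-07 (limma, Benjamini-Hochberg over all 19365 genes tested). Its subpolysomal change was 0.02 ± 0.08, with an adjusted p of 0.916. Arrays had between 20177 and 24953 probes well above background. Of 9 hepatocyte markers, 7 were above background on all 16 arrays, but albumin (Alb) was above it on 0 to 3 arrays a group. Among them Ttr was higher in both fractions (1.15 and 1.33) and Foxa2 was lower in the subpolysomal RNA (-0.40), and no other was called. Markers of stellate cells and fibroblasts were bright and moved with the shRNA. Their summed linear signal was 89400 to 166000 on scramble polysomal arrays and 8010 to 15200 on shRNA polysomal arrays, and 5 of 5 tested were lower there (4 of 5 in the subpolysomal RNA). Of 6 macrophage markers, Lyz2 was above background on no array, and of the 4 tested only Csf1r was called, lower in both fractions. Their summed signal was 197 to 228 on shRNA and 295 to 343 on scramble polysomal arrays. No lymphocyte, plasmacytoid dendritic cell or endothelial marker that could be tested was called.

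The interferon-response genes did not move in one direction with the shRNA. On polysomes 12 of the 46 tested genes were higher (26.1%) and 10 were lower (21.7%), at an adjusted p under 0.05, while 11.1% of all genes tested were higher and 10.7% were lower. In the subpolysomal RNA 9 were higher (19.6%) and 8 were lower (17.4%), against 11.8% and 12.3% of all genes. These shares of all genes also belong beside the counts by role and by list given below. The median change of the tested genes was 0.14 on polysomes and -0.02 in the subpolysomal RNA, on the log2 scale, against 0.02 in both for all genes. Among the 31 genes above background on every array, 9 were higher and 6 were lower on polysomes, and 7 and 5 in the subpolysomal RNA. The share among all genes that bright was not computed. Among genes measured above background in both arms, the changes ran from -2.67 (Ifi27l2a) to 1.53 (Gbp6) on polysomes and from -2.38 (Ifi27l2a) to 1.14 (Ifi47) in the subpolysomal RNA. Gbp6 was dim, well above background on 2 of the 4 scramble polysomal arrays. The 9 subpolysomal rises include Gbp4, whose probe was not well above background on any subpolysomal array. The falls in both fractions include Rsad2, which passed the signal filter through the scramble arrays alone.

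Most called genes were called in both fractions. Of the 46 genes, 8 were called higher in both (Gbp4, Gbp9, Ifi35, Ifi47, Irf5, Oas1c, Oasl1 and Stat2) and 8 were called lower in both (Ifi203, Ifi204, Ifi27, Ifi27l2a, Ifi27l2b, Isg15, Oasl2 and Rsad2), where the subpolysomal value of Gbp4 compares signals that were not above background. None was called in opposite directions. Another 4 were called higher on polysomes alone (among them Gbp6, Ifit3 and Isg20), 2 lower on polysomes alone (Ifi30 and Oas1a), 1 higher in the subpolysomal RNA alone (Oas1f), and 23 in neither. A call in one fraction alone does not show that the fractions differ, which is tested further on. The scramble and shRNA arrays did not overlap for 21 of the 46 genes on polysomes and for 18 in the subpolysomal RNA. The shares over all genes were not computed for the calls in both fractions, in a single fraction or in neither, nor for the non-overlap. These counts therefore say nothing particular to the interferon-response genes.

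**Figure D1:**
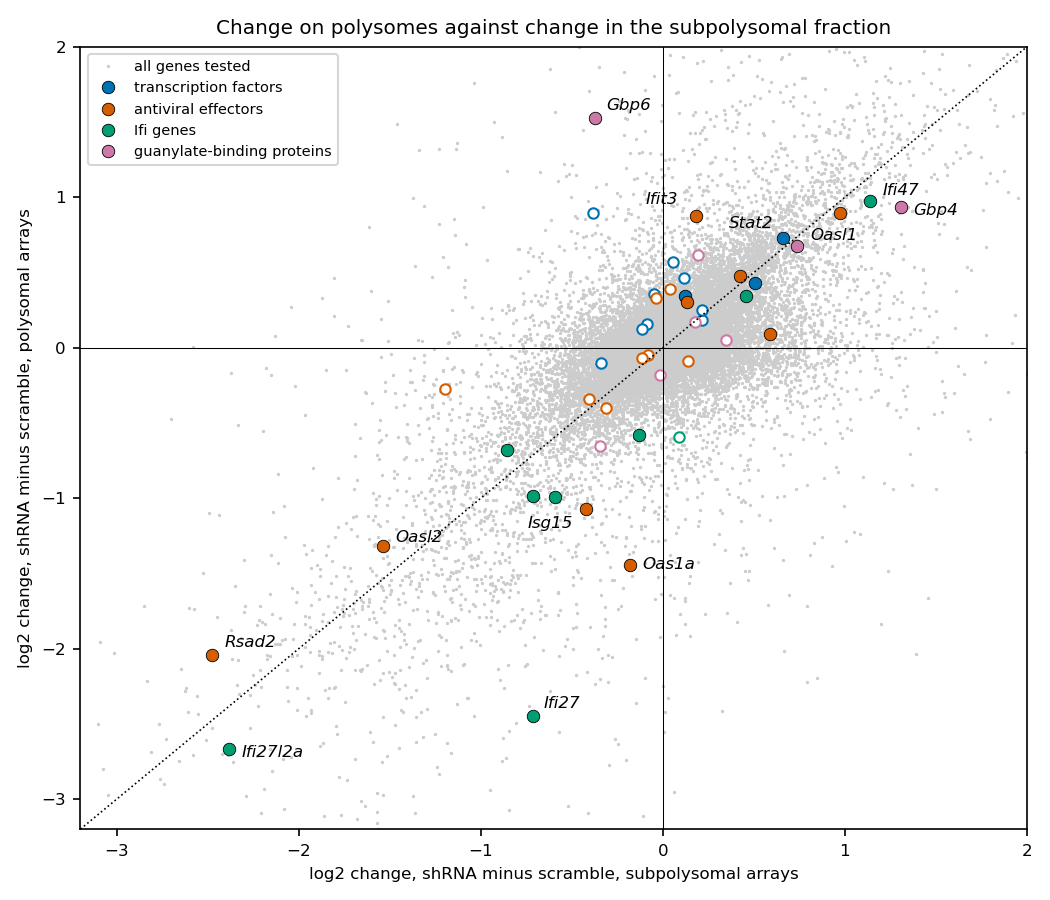
Each point is a gene, placed by its log2 change (shRNA minus scramble, 4 arrays against 4) in the subpolysomal RNA (x axis) and on polysomes (y axis). Grey points are all tested genes within the axis limits, coloured points the 46 tested interferon-response genes by role (filled where called in either fraction, open where called in neither), and the dotted line marks equal change. Ifi27 lies far below the line and Gbp6 far above it, and Rsad2, Ifi27l2a, Oasl2, Ifi47, Oasl1 and Stat2 lie near it.

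Spike-in scaling shifted the changes down as a whole, so by construction it tended to lessen rises and enlarge falls. When the arrays were scaled to the labelled spike-in probes in place of quantile normalization, the median of all genes shifted. It went to -0.47 on polysomes and to -0.23 in the subpolysomal RNA. No interferon-response gene was called higher in either fraction, where 0.522% and 0.222% of all genes were. Of the 12 genes higher on polysomes, 8 stayed above 0 under that scaling and 4 turned below it (among them Ifi35, Irf5 and Isg20). All 10 falls on polysomes kept their sign and 7 kept their call, where 5.45% of all genes were called lower. The fall of Eif6 itself lost its call under that scaling (-1.36, adjusted p = 0.099). Changes are therefore given relative to the average gene. The count of rises on polysomes also changed with the replicate left out: it was 7, 5, 4 and 12 without replicate 1, 2, 3 and 4 of every group, where 6.75%, 6.7%, 6.99% and 13.6% of all genes were higher. The falls numbered 9, 9, 9 and 12, where 7.58%, 7.92%, 7.57% and 12.2% of all genes were lower.

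The 16 arrays lay on 4 slides, each with 1 array of every group. Every gene called on polysomes had the same sign within each of the 4 slides, and so did every gene called in the subpolysomal RNA. The genes were called on these same arrays, so this is not a separate check. With the slide as a block, 12 were higher and 11 were lower on polysomes, against 11.8% and 11.4% of all genes. In the subpolysomal RNA 8 were higher and 10 were lower, against 13.4% and 13.5% of all genes. In bulk RNA, fewer cells that express a gene and less RNA per cell cannot be told apart, and the fibroblast marker signal fell along with the genes that fell. Its part in these changes was not tested.

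The shRNA arrays gave no interferon gene that was called. Of 15 interferon genes on the array, 8 had a probe that could be tested, and none was called in either fraction or in the comparison of the fractions by limma. At an unadjusted p under 0.05, 0 were called on polysomes and 1 was higher in the subpolysomal RNA, and under spike-in scaling 1 was called lower on polysomes. The median change of the 8 was -0.009 on polysomes and 0.485 in the subpolysomal RNA, against 0.02 in both for all genes tested. Several were dim in the subpolysomal RNA, such as Ifna2, well above background on 0 scramble arrays and 1 shRNA array there. The absence of a call therefore does not show that these genes were unchanged. The probe for interferon beta (Ifnb1), the first type I interferon that most cells make, was not well above background on any array. Among receptors and kinases, 4 of 9 were higher in both fractions and 0 were lower on polysomes, with Il10rb lower in the subpolysomal RNA. Of all genes, 11.1% were higher on polysomes and 11.8% in the subpolysomal RNA.

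The receptor changes were of modest size. Ifngr1, the ligand-binding chain of the interferon gamma receptor, was at 12.26, 12.12, 12.25 and 12.15 on scramble polysomal arrays and at 12.77, 12.82, 12.88 and 13.08 on shRNA polysomal arrays, a rise of 0.69 ± 0.10 (adjusted p = 8.41e-05) without overlap. Ifngr2, its signalling chain, rose by 0.71 ± 0.11 on polysomes (adjusted p = 0.00028) and by 0.52 ± 0.11 in the subpolysomal RNA (adjusted p = 0.00369), the latter not called without replicate 2. The interferon lambda receptor chain Ifnlr1 rose by 0.62 ± 0.10 and 0.56 ± 0.10. The type I receptor chains gave no call: Ifnar1 changed by 0.11 ± 0.12 and Ifnar2 by -0.15 ± 0.09 on polysomes. Under spike-in scaling none of the 9 genes was called in either fraction, and their median on polysomes was -0.08 in place of 0.395. Of all genes, 0.522% and 0.222% were called higher in the 2 fractions under that scaling.

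Among the transcription factors, 3 of 12 tested were higher on polysomes (among them Stat2 and Irf5), 2 were higher in the subpolysomal RNA (Stat2 and Irf5), and 0 were lower in either. Stat2, a signal transducer of the type I response, was at 8.70, 8.58, 8.62 and 8.76 on scramble polysomal arrays and at 9.41, 9.26, 9.52 and 9.39 on shRNA polysomal arrays. Subpolysomal Stat2 was at 9.54, 9.51, 9.45 and 9.36 and at 10.17, 10.17, 10.03 and 10.13. The shRNA arrays were all above the scramble arrays in both fractions, by 0.73 ± 0.08 (1.66-fold, adjusted p = 5.03e-06) and 0.66 ± 0.08 (1.58-fold, adjusted p = 1.84e-05).

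Irf9, the partner of STAT2 that gives their complex its DNA binding, was not called. It was at 8.74, 8.67, 8.70 and 8.79 and at 8.82, 8.91, 8.87 and 8.94 on scramble and shRNA polysomes. These do not overlap, but the difference was small (0.16 ± 0.07, adjusted p = 0.107), and in the subpolysomal RNA it was -0.09 ± 0.07 (adjusted p = 0.397). Irf7, which amplifies type I interferon, was dim: it changed by 0.90 ± 0.43 on polysomes (adjusted p = 0.174) and by -0.38 ± 0.43 in the subpolysomal RNA. Irf1, an early target of interferon gamma, changed by 0.57 ± 0.23 on polysomes (adjusted p = 0.101) as the mean of 2 probes, 1 of them above background on 2 of 16 arrays. Its bright probe alone, on all 16 arrays, gave a rise of 0.73 on polysomes (adjusted p = 3.12e-06) and of 0.45 in the subpolysomal RNA (adjusted p = 0.000431). Irf3, a factor that responds to infection before any interferon is made, changed by 0.18 ± 0.18 (adjusted p = 0.564). Irf5, an activator of inflammatory genes, rose by 0.43 ± 0.10 on polysomes, not called without replicate 2 or without replicate 3, and by 0.50 ± 0.10 in the subpolysomal RNA.

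Antiviral effectors split evenly. Of 17 tested, 4 were higher on polysomes (Oasl1, Ifit3, Oas1c and Isg20) and 4 were lower (Rsad2, Oas1a, Oasl2 and Isg15), and in the subpolysomal RNA 3 were higher and 3 were lower. Rsad2 encodes viperin, an enzyme that makes a chain-terminating nucleotide. It was at 3.80, 3.77, 3.47 and 3.84 on scramble polysomal arrays and at 1.33, 1.48, 2.06 and 1.84 on shRNA polysomal arrays, and in the subpolysomal RNA at 3.45, 3.76, 3.65 and 3.41 and at 0.87, 1.63, 1.02 and 0.84. The groups did not overlap, and its probe was well above background on 4 and 3 scramble arrays and on none of the shRNA arrays. Rsad2 was thus at least 1.89-fold lower on polysomes and at least 1.07-fold lower in the subpolysomal RNA. It was the only one of the 46 genes that passed the signal filter through the scramble arrays alone. The filter therefore favoured a fall, and no p-value is given for this gene.

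The neighbouring genes Oasl1 and Oasl2, which encode OAS-like proteins with ubiquitin-like domains, changed in opposite directions. Oasl1 was at 6.41, 6.22, 6.38 and 6.51 on scramble polysomes and at 7.33, 7.0, 7.42 and 7.37 on shRNA polysomes, higher by 0.90 ± 0.10 (1.86-fold, adjusted p = 9.03e-06). Oasl2 was at 5.55, 5.48, 5.70 and 5.92 and at 4.29, 4.23, 4.42 and 4.45, lower in every shRNA array, and fell by 1.32 ± 0.14 (2.49-fold, adjusted p = 6.32e-06). The same held in the subpolysomal RNA, where Oasl1 was at 6.86, 6.91, 6.77 and 6.68 against 7.84, 7.84, 7.66 and 7.76, scramble first, a rise of 0.97 ± 0.10 (adjusted p = 5.73e-06). There Oasl2 was at 5.17, 5.40, 5.57 and 5.94 against 3.90, 4.09, 4.07 and 3.87, a fall of 1.54 ± 0.14 (adjusted p = 1.94e-06), with 2 of the 4 shRNA arrays well above background. No annotated protein-coding gene lies between these 2 genes on chromosome 5. Their probes map to chr5:115387861-115387920 (Oasl1) and chr5:115362168-115362227 (Oasl2) in mm9.

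Isg15, a ubiquitin-like protein that is attached to other proteins, was lower in both fractions. It was at 8.41, 8.34, 8.44 and 8.19 on scramble polysomal arrays and at 7.35, 7.29, 6.98 and 7.47 on shRNA polysomal arrays, without overlap, and fell by 1.07 ± 0.11 (2.10-fold, adjusted p = 2.28e-06). Subpolysomal Isg15 was at 6.46, 6.32, 6.36 and 6.59 and at 5.99, 5.96, 6.13 and 5.96, a smaller fall of 0.42 ± 0.11 (adjusted p = 0.00883) that was not called without replicate 1 or without replicate 2. A probe of Isg15 shares at least 25 bases with a probe of Gm9706, so its signal may be shared; no other interferon-response gene shared such a stretch with another gene's probe. Oas1a, a synthetase of the second messenger that activates RNase L, was at 5.22, 5.76, 5.26 and 5.30 on scramble polysomal arrays and at 3.99, 3.85, 3.71 and 4.20 on shRNA polysomal arrays. It fell by 1.45 ± 0.24 there (2.72-fold, adjusted p = 0.000419), and by 0.18 ± 0.24 in the subpolysomal RNA (adjusted p = 0.641), where the groups overlapped and its 2 probes disagreed in sign (-1.11 and 0.74). The brighter probe alone gave a called fall there as well (-1.11, adjusted p = 0.00185).

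The IFIT genes, whose products bind foreign RNA ends, did not move together. Ifit3 was at 4.90, 4.83, 4.57 and 5.29 on scramble polysomal arrays and at 5.38, 5.71, 5.83 and 6.17 on shRNA polysomal arrays, a rise of 0.87 ± 0.24 (1.83-fold, adjusted p = 0.0177) that was not called without replicate 2 or without replicate 3. Ifit2 changed by -0.05 ± 0.14 (adjusted p = 0.865) and Ifit1 by -0.27 ± 0.43 (adjusted p = 0.742) on polysomes. Subpolysomal Ifit1 differed by -1.20 ± 0.43 (adjusted p = 0.0591), with 1 of 4 shRNA arrays well above background. Usp18, which removes ISG15 and dampens type I signalling, changed by -0.40 ± 0.20 on polysomes (adjusted p = 0.192), and Mx2, a dynamin-like antiviral protein, by -0.09 ± 0.16 (adjusted p = 0.77). Mx1, Oas2 and Oas3 were not tested, because their probes were well above background on at most 1 of 16 arrays.

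**Figure D2:**
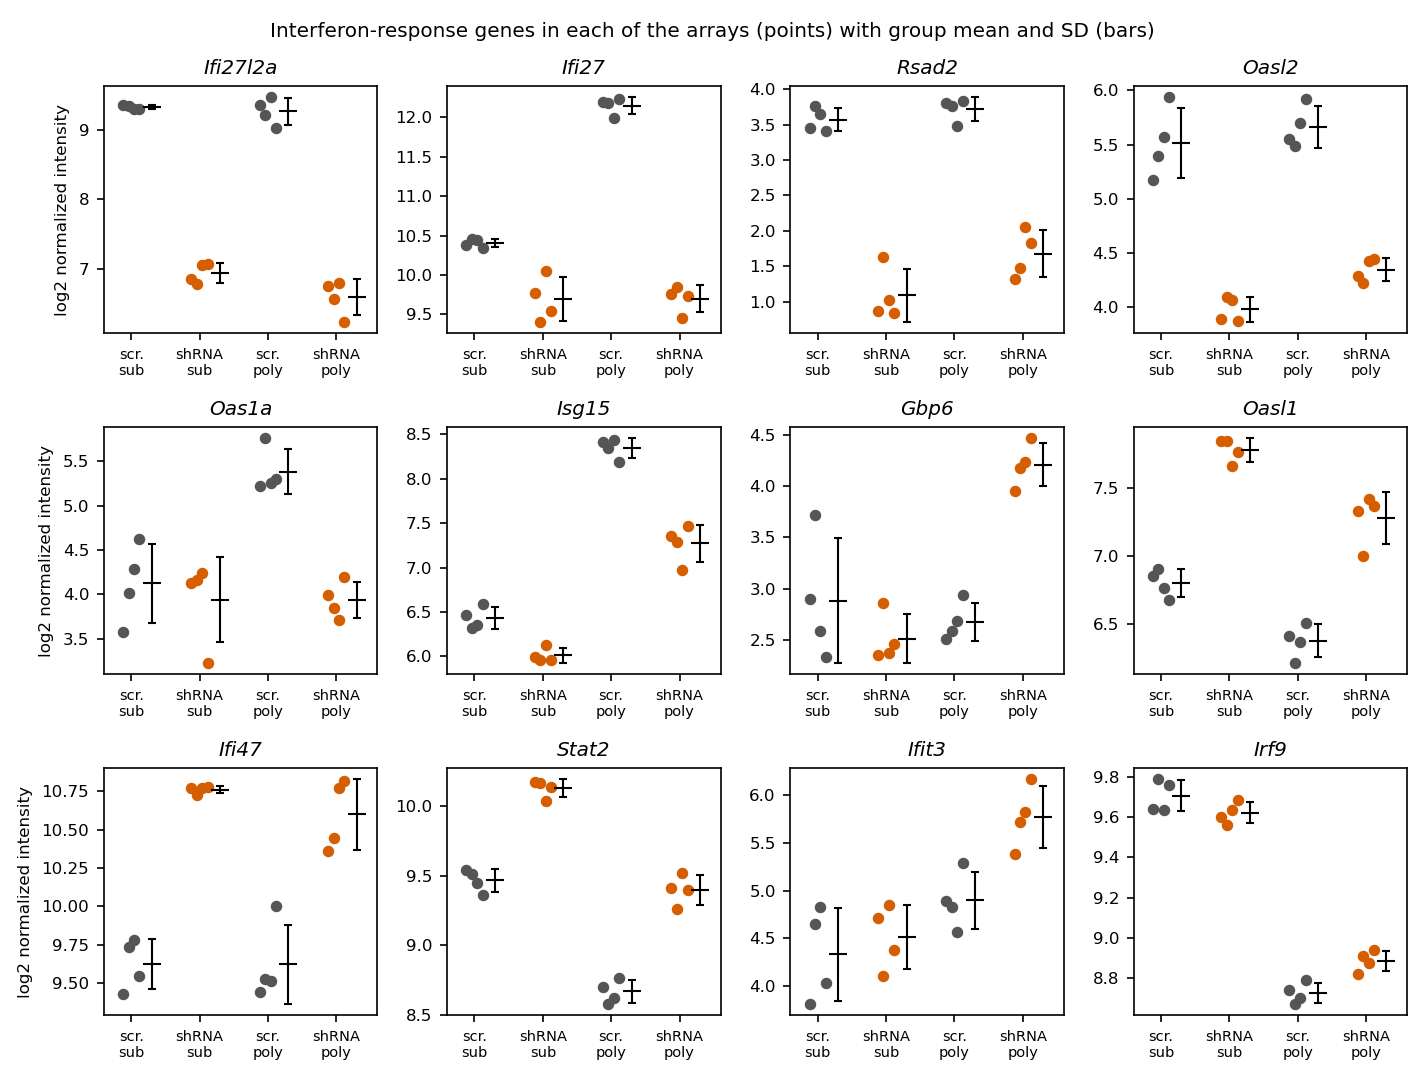
Log2 normalized intensity (y axis, a separate scale in each panel) of 12 interferon-response genes on every array: grey points are scramble arrays, orange points shRNA arrays, in the subpolysomal (sub) and polysomal (poly) RNA, and the bars give the mean and SD of 4 arrays. Scramble and shRNA points are separate in both fractions for Ifi27l2a, Ifi27, Rsad2, Oasl2, Isg15, Oasl1, Ifi47 and Stat2, and on polysomes alone for Oas1a, Gbp6, Ifit3 and Irf9.

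The genes named Ifi, which share a name and not a function, held the largest falls. Of 9 tested, 6 were lower on polysomes and 2 were higher, and in the subpolysomal RNA 5 were lower and 2 were higher. Ifi27l2a, a small hydrophobic membrane protein, was at 9.36, 9.21, 9.47 and 9.02 on scramble polysomal arrays and at 6.76, 6.58, 6.80 and 6.24 on shRNA polysomal arrays. In the subpolysomal RNA it was at 9.35, 9.34, 9.30 and 9.30 and at 6.85, 6.78, 7.06 and 7.07. Every shRNA array was below every scramble array in both fractions, and the falls were 2.67 ± 0.13 on polysomes (6.35-fold, adjusted p = 1.83e-09) and 2.38 ± 0.13 in the subpolysomal RNA (5.22-fold, adjusted p = 9.42e-09). Both calls held under every alternative run, spike-in scaling included. Within slides the polysomal change ran from -3.12 to -2.40.

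Its neighbour Ifi27, a related mitochondrial membrane protein, was at 12.19, 12.18, 11.99 and 12.23 on scramble polysomal arrays and at 9.77, 9.85, 9.46 and 9.73 on shRNA polysomal arrays, a fall of 2.45 ± 0.13 (5.46-fold, adjusted p = 3.28e-09). Its subpolysomal level was 10.38, 10.46, 10.44 and 10.35 on scramble and 9.78, 9.41, 10.05 and 9.54 on shRNA arrays, a fall of 0.71 ± 0.13 (1.64-fold, adjusted p = 0.000729). The groups did not overlap in either fraction, and the polysomal distance was larger. Ifi27l2b, dimmer and with 2 probes, fell by 0.99 ± 0.14 on polysomes and by 0.59 ± 0.14 in the subpolysomal RNA (adjusted p = 0.000122 and 0.00772), and its 2 probes differed in the latter (-1.17 and -0.02). These 3 genes follow each other on chromosome 12 with no other protein-coding gene between them, and all 3 were lower in both fractions. The probes of Ifi27 and Ifi27l2a map to chr12:104678353-104678412 and chr12:104680394-104680453 in mm9.

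The HIN-200 proteins, nuclear and cytosolic DNA binders encoded on chromosome 1, were lower or not called. Ifi204 was at 10.28, 10.18, 10.07 and 10.57 on scramble polysomal arrays and at 9.19, 9.22, 9.30 and 9.46 on shRNA polysomal arrays, and fell by 0.98 ± 0.11 (1.98-fold, adjusted p = 1.08e-05), and by 0.71 ± 0.11 in the subpolysomal RNA (adjusted p = 0.000286). Ifi203 fell by 0.68 ± 0.16 and 0.86 ± 0.16, the former not called without replicate 1 or without replicate 2. Ifi202b changed by -0.59 on polysomes (adjusted p = 0.0765) and by 0.09 in the subpolysomal RNA. Ifi30, a lysosomal thiol reductase, fell by 0.58 ± 0.12 on polysomes (adjusted p = 0.0026; 0.0512 without replicate 3). Ifi47, a GTPase of the IRG family and no relative of these, rose in both fractions: it was at 9.43, 9.73, 9.78 and 9.54 on scramble and at 10.77, 10.72, 10.77 and 10.78 on shRNA subpolysomal arrays, a rise of 1.14 ± 0.14 (2.20-fold, adjusted p = 2.19e-05), and it rose by 0.98 ± 0.14 on polysomes (1.97-fold, adjusted p = 7.48e-05).

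The guanylate-binding proteins, large GTPases induced above all by interferon gamma, were higher or not called. Of 8 tested, 3 were higher on polysomes (Gbp6, Gbp4 and Gbp9), 2 were called higher in the subpolysomal RNA (Gbp9, and Gbp4 with no array above background), and 0 were lower in either. All 3 lie in the chromosome 5 cluster, beside Gbp10, which was not called, and Gbp8, which was not tested. The 4 tested genes of the chromosome 3 cluster (Gbp2, Gbp3, Gbp5 and Gbp7) were not called in either fraction, and of these Gbp2 had the lowest polysomal change (-0.65 ± 0.27, adjusted p = 0.112). Gbp9 rose by 0.67 ± 0.17 on polysomes and by 0.74 ± 0.17 in the subpolysomal RNA (adjusted p = 0.00826 and 0.00456), the former not called without replicate 2 or without replicate 3.

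Gbp4 was at 3.93, 3.80, 3.69 and 3.96 on scramble and at 4.75, 4.70, 4.84 and 4.83 on shRNA polysomal arrays, a rise of 0.94 ± 0.30 (adjusted p = 0.0352), without overlap. This call held in 8 of 15 settings, the one reported included, and was lost without replicate 1, 3 or 4, with the replicate number as a block, in the authors' table, with no filter and under spike-in scaling. In the subpolysomal RNA its probe was not well above background on any array of either group, so no fold is given there. Gbp6 was at 2.51, 2.59, 2.68 and 2.94 on scramble and at 3.95, 4.17, 4.24 and 4.47 on shRNA polysomal arrays, a rise of 1.53 ± 0.24 (2.88-fold, adjusted p = 0.0002), and both of its probes were higher (1.90 and 1.16). In the subpolysomal RNA it was at 2.90, 3.72, 2.59 and 2.33 and at 2.36, 2.86, 2.38 and 2.47, where the groups overlapped (-0.37 ± 0.24, adjusted p = 0.286). On polysomes Gbp6 was well above background on 2 of 4 scramble and 4 of 4 shRNA arrays. Its polysomal change ran from 0.25 to 1.72 over 15 settings, and the call was lost under spike-in scaling.

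**Figure D3:**
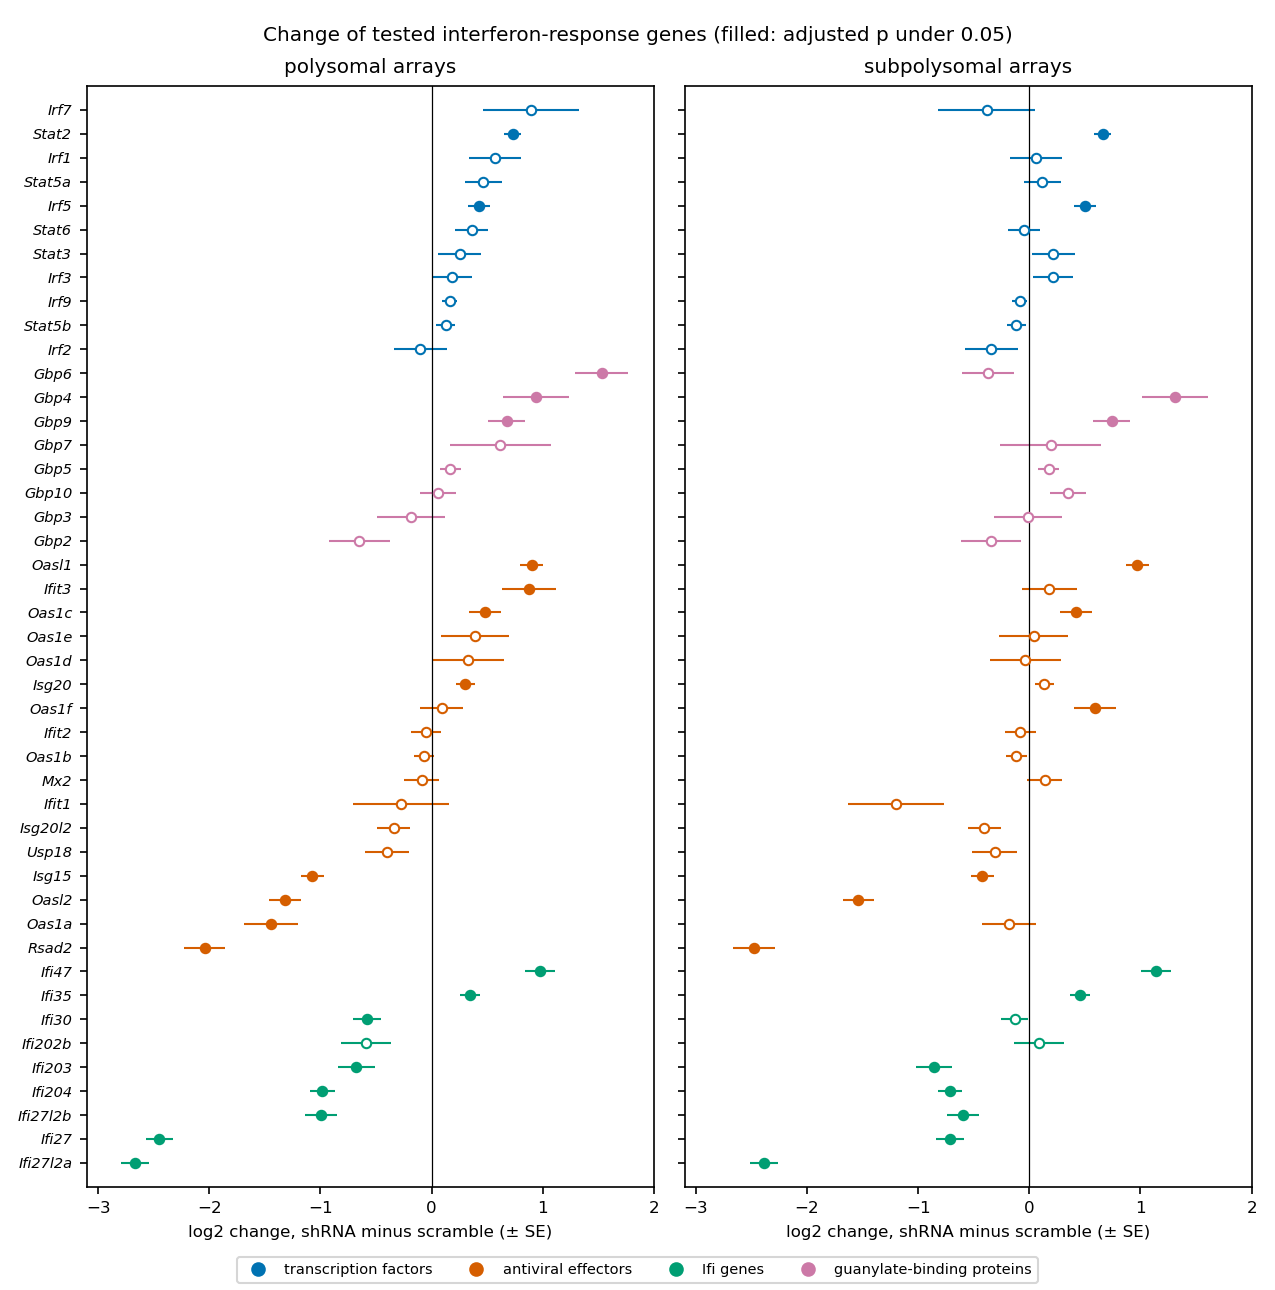
Log2 change with its SE (x axis, shRNA minus scramble, 4 arrays a group) of 45 tested interferon-response genes (y axis, 1 further tested gene not drawn, grouped by role and ordered by the polysomal change), on polysomal arrays (left) and subpolysomal arrays (right). Filled points have an adjusted p under 0.05: 11 to the right and 10 to the left of 0 on polysomes, and 9 and 8 in the subpolysomal RNA.

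The change in translational efficiency, the polysomal change minus the subpolysomal change in one model, shares all its arrays with the comparisons above. By this measure 1 of the 46 genes was higher (Gbp6) and 2 were lower (Ifi27 and Isg15), where 0.403% and 1.11% of all genes were. For Ifi27 the polysomal level exceeded the subpolysomal level by 1.74 in scramble cells and by 0.01 in shRNA cells, a difference of -1.74 ± 0.18 (adjusted p = 0.000133). That call was lost under spike-in scaling alone (-2.05, adjusted p = 0.523), among 15 alternatives. For Isg15 the 2 levels differed by 1.91 and by 1.26, a difference of -0.65 ± 0.15 (adjusted p = 0.0426). The Isg15 call was lost under 9 of the alternatives, among them the slide as a block and the sets without replicate 1, 2 or 3.

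For Gbp6 the polysomal minus subpolysomal level was -0.21 in scramble cells and 1.69 in shRNA cells, a difference of 1.90 ± 0.33 (adjusted p = 0.00832). Its call was lost without replicate 1, without replicate 3, with the culture as a block and under spike-in scaling. Gbp6 was dim, with 2 of 4 arrays well above background in both the scramble polysomal and the shRNA subpolysomal group. Of the 43 genes not called, Oas1a had a difference of -1.26 ± 0.34 (adjusted p = 0.0942), which was -0.46 with its brighter probe alone. Other genes with large changes in both fractions were not called by this measure: the difference was -0.28 ± 0.18 for Ifi27l2a, -0.07 ± 0.14 for Oasl1, 0.22 ± 0.20 for Oasl2, 0.07 ± 0.11 for Stat2 and -0.16 ± 0.19 for Ifi47. An adjusted p above the threshold does not show that their fractions changed alike.

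Other genes of the pathway came from lists of sensors, inhibitors, antigen presentation and interferon-stimulated genes with other names. Apart from the inhibitors, these lists held calls in both directions. Of 36 tested interferon-stimulated genes outside the name rule, 10 were higher and 6 were lower on polysomes, against 11.1% and 10.7% of all genes. In the subpolysomal RNA 7 were higher and 6 were lower, against 11.8% and 12.3% of all genes. Ifitm3, which blocks virus entry at endosomes, was at 11.70, 11.71, 11.80 and 11.67 on scramble polysomal arrays and at 9.23, 9.61, 9.09 and 9.12 on shRNA polysomal arrays. It fell by 2.46 ± 0.11 there (5.49-fold, adjusted p = 1.57e-09) and by 1.36 ± 0.11 in the subpolysomal RNA (adjusted p = 7.9e-07), without overlap in either fraction, and its translational efficiency was lower (-1.10 ± 0.16, adjusted p = 0.00235). Trim30a, a member of the TRIM family, fell by 1.94 ± 0.18 and 1.34 ± 0.18. In the other direction, Cxcl10, a chemokine for T cells, rose by 0.82 ± 0.16 on polysomes and by 1.55 ± 0.16 in the subpolysomal RNA (adjusted p = 0.00127 and 4.76e-06). The 10 rises on polysomes include the related Cxcl9, which passed the signal filter through the shRNA arrays alone. It was well above background on 2 of 4 shRNA polysomal arrays and on no scramble array, so no fold or p-value is given.

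Of 16 tested sensors of RNA and DNA, 2 were higher and 2 were lower on polysomes, near the 11.1% and 10.7% of all genes. Tmem173, which encodes the DNA-sensing adaptor STING, was at 9.69, 9.67, 9.71 and 10.12 on scramble and at 7.73, 7.79, 7.90 and 7.87 on shRNA polysomal arrays, a fall of 1.97 ± 0.12 (3.93-fold, adjusted p = 2.38e-08). Zbp1, a sensor of Z-form nucleic acid, was lower on polysomes (-1.97 ± 0.13, adjusted p = 4.01e-08) as the mean of 2 probes that differed in size. Its dimmer probe gave -0.86, and its brighter probe, which has a missing value among the polysomal arrays, gave -2.96. The RNA sensor Ifih1, also called MDA5, was higher: it was at 5.32, 5.27, 5.21 and 5.83 on scramble and at 5.96, 5.98, 6.27 and 6.82 on shRNA polysomal arrays, a rise of 0.85 ± 0.18 (1.80-fold, adjusted p = 0.00314; 0.0562 without replicate 3). Both Tmem173 and Zbp1 were lower in translational efficiency as well (-0.97 ± 0.18 and -1.22 ± 0.18, adjusted p = 0.0103 and 0.00311), as was Psmb8, described next (-1.05 ± 0.19, adjusted p = 0.0117). These efficiency calls and that of Ifitm3 were lost without replicate 1 and without replicate 3, and those of Tmem173 and Psmb8 also without replicate 2.

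Antigen presentation gave 4 higher and 2 lower of 14 on polysomes, against 11.1% and 10.7% of all genes. In the subpolysomal RNA 6 were higher and 3 were lower, against 11.8% and 12.3% of all genes. Those subpolysomal counts were 4 and 2 under 75th percentile scaling and 0 and 0 under spike-in scaling. B2m was called higher in both fractions (0.47 ± 0.08 on polysomes and 0.35 ± 0.08 in the subpolysomal RNA). The immunoproteasome subunit Psmb8 was at 8.42, 8.37, 8.42 and 8.48 on scramble and at 6.70, 6.90, 6.28 and 6.53 on shRNA polysomal arrays, a fall of 1.82 ± 0.14 (3.53-fold, adjusted p = 1.62e-07), while its partner subunit Psmb9 rose by 0.59 ± 0.17 (adjusted p = 0.0229). The class I heavy chain H2-K1 rose by 0.46 ± 0.12 and the peptide transporter chain Tap2 fell by 0.74 ± 0.20, and these calls and that of Psmb9 were each lost without replicate 1 and without replicate 2. Among 7 feedback inhibitors, Socs3, an inhibitor of JAK kinases, was lower in both fractions (-0.38 ± 0.09 and -0.48 ± 0.09) and the others were not called. The polysomal call of Socs3 was lost without replicate 1. Under spike-in scaling 1 of the 36 interferon-stimulated genes was called higher on polysomes and 4 were called lower, and of the 16 sensors 0 and 2. Of all genes, 0.522% were higher and 5.45% were lower there.

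**Figure D4:**
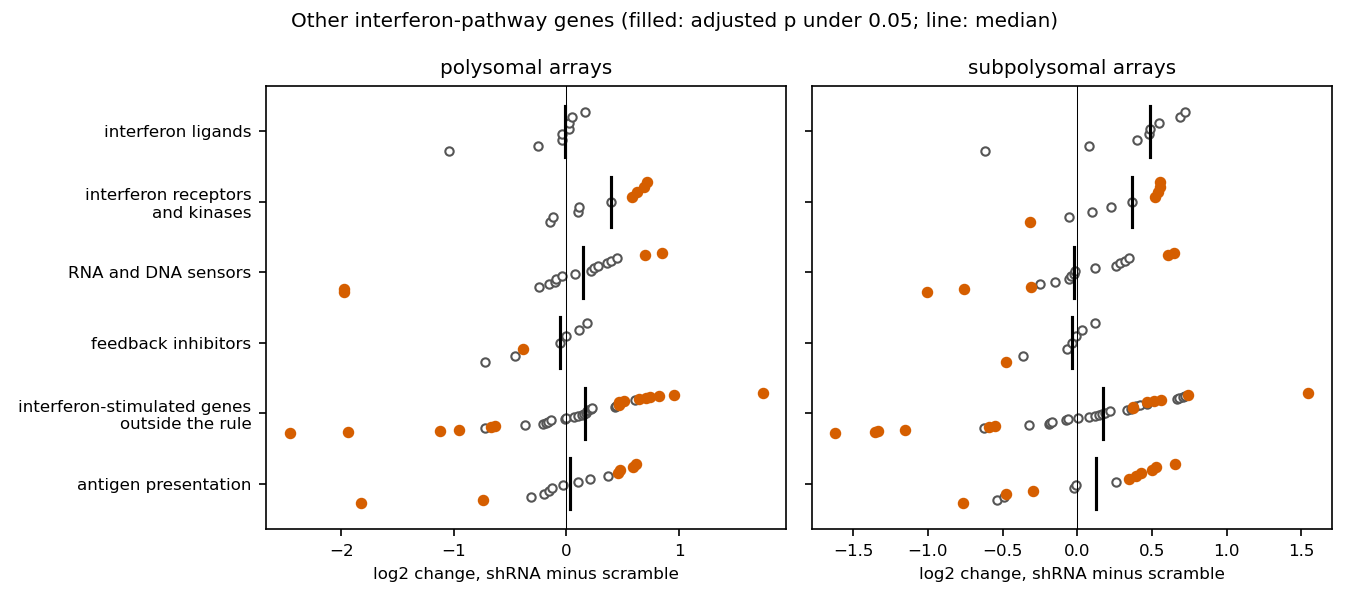
Log2 change (x axis, shRNA minus scramble, 4 arrays a group) of the tested genes of 6 other interferon-pathway lists (y axis) on polysomal (left) and subpolysomal (right) arrays. Filled points have an adjusted p under 0.05 and the vertical line is the list's median. No ligand is filled, and the sensors, the other interferon-stimulated genes and antigen presentation each hold filled points on both sides of 0.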

How the data were processed

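RNA from polysomal and subpolysomal gradient fractions of AML12 cells was measured on 16 one-colour arrays, 4 per group, with groups taken from the sample descriptions. The deposited scanner files hold spot intensity, background-subtracted by Agilent Feature Extraction (10.7.3.1 per the file headers, 10.7.7.1 per the labels), with 44397 spots an array and 4 arrays a slide. The authors also deposited a table of quantile-normalized log2 values (median 4.64 in every column, r with the same array's scanner values of at least 0.995), which served as an alternative.

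Here log2 intensity was quantile normalized over all arrays. Control spots were left out, as were outlier flags, which left 82 missing values, and no spot was saturated. A probe was kept if, in some group, 2 or more of the 4 arrays had it well above background, and kept probes were averaged by gene name. A model with the 4 groups was fitted to 19365 genes with limma 3.58.1 in R 4.3.3 (lmFit and eBayes), and adjusted p-values are Benjamini-Hochberg over all of them, called under 0.05. The polysomal, subpolysomal and difference (translational efficiency) contrasts came from 1 fit. Where no array of a group was well above background, brighter over dimmer is given as a lower bound on the fold, from the lowest signal among probes well above background on each array. Precision is limited by the 4 arrays a group.

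Alternatives were 75th percentile scaling, scaling to 7 spike-in probes, separate normalization of the fractions, normexp background correction (offset 50), a stricter and no filter, the brightest probe, the authors' table, the slide or the replicate number as a block, and leaving out each replicate. Text names were a core list of interferon genes, the 12 largest called changes, every gene called in translational efficiency, Eif6, and the 3 largest called changes of each pathway list. Other genes are named because they make up a count, or were chosen after their values were seen. The members and lists were chosen with earlier results of these data known. Probe positions are those of the scanner files (mm9), and promoter windows are from RefSeq (GRCm38.p6). Some genes counted here are not reported by name. The scripts were tested on simulated data. Further tools were Python 3.11.15, numpy 2.4.6, pandas 2.3.3 and matplotlib 3.10.9.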

Additional observations from a re-analysis of the deposited data

Results flagged for a closer look

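In 9 of 144 groups of 4 arrays examined, 1 array stood far from the other 3, and chance gives about 1 in 20 such groups. In log2 normalized intensity, these were Oas1a on the shRNA subpolysomal array of replicate 4 (3.23) and the scramble polysomal array of replicate 2 (5.76), Gbp4 on the shRNA subpolysomal array of replicate 2 (1.90, where the probe was not well above background), Ifi47 on the scramble polysomal array of replicate 4 (10.00) and Ifi204 on the scramble subpolysomal array of replicate 4 (10.2). The others were Tmem173 on the scramble polysomal array of replicate 4 (10.12), Ifngr2 on the scramble and shRNA polysomal arrays of replicate 4 (11.4 and 11.95) and Ifnlr1 on the shRNA polysomal array of replicate 4 (9.52).

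The shRNA effect was called different between the fractions, by a test of that difference in the model (limma), for Isg15 (-0.65), Ifi27 (-1.74) and Gbp6 (1.90), on the log2 scale, polysomal minus subpolysomal change. The calls of Isg15 and Gbp6 were lost under several alternatives and that of Ifi27 under spike-in scaling alone, as given above.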

How the results depend on the processing

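Spike-in scaling changed the counts most. No interferon-response gene was called higher on polysomes, in the subpolysomal RNA or in translational efficiency, against 0.522%, 0.222% and 0.0103% of all genes. In that setting 3 were called lower in the subpolysomal RNA and 0 in translational efficiency, against 1.78% and 0.155% of all genes. The medians of the interferon-response genes were -0.346, -0.271 and -0.196. The median on polysomes was 0.0371 with normexp and -0.03 with no filter on dim probes, and that of the subpolysomal RNA was -0.0724 in the authors' table. Genes called lower in translational efficiency numbered 1 with no filter, in the authors' table and with the slide as a block. Of all genes, 0.467%, 0.914% and 1.27% were lower there. The replicate numbers did not pair the arrays (same-number correlations of deviations from -0.211 to 0.412). With the replicate block, 12 genes were higher and 10 lower on polysomes, against 10.8% and 10.3% of all genes. The counts were 7 and 8 in the subpolysomal RNA, against 11.7% and 11.9%. They were 1 and 1 in translational efficiency, against 0.351% and 1.14%. With a replicate block by culture the last were 0 and 1, against 0.139% and 0.527%.

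Leaving out each replicate gave 4 to 12 genes higher and 9 to 12 lower on polysomes (median 0.0923 to 0.182), 6 to 8 and 7 to 10 in the subpolysomal RNA (median -0.101 to 0.0707), and 0 to 1 and 1 to 3 in translational efficiency (median -0.044 to 0.0751). The shares of all genes, higher and lower, were 6.7% to 13.6% and 7.57% to 12.2% on polysomes. They were 6.3% to 15.7% and 7.25% to 16% in the subpolysomal RNA, and 0.103% to 0.589% and 0.279% to 0.935% in translational efficiency. Among the named genes' values over all alternatives, 100 called changes lost their call, 21 others gained one, and none was called in the opposite direction. Dim probes limit Rsad2, Gbp3, Gbp4, Gbp6, Gbp7 and Cxcl9, and 14 genes could not be tested.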
